A study of Mus musculus with 6 samples.

Results

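ATAC-seq signal was examined at 10 mouse genes of FGF receptor signalling in freshly isolated muscle stem cells (MuSCs): the receptors Fgfr1, Fgfr2 and Fgfr4, the Sprouty genes Spry1, Spry2 and Spry4, the Sprouty-related genes Spred1 and Spred2, and the phosphatases Dusp6 and Dusp1. Peaks were assigned to a gene when the deposited table gave them its symbol, or when they had no gene of their own and lay between the start and stop that the table lists for it. In this way 157 of the 75412 peaks were found, 27 by symbol and 130 by position, and 9 of the 10 genes had at least 1 peak. ATAC-seq uses the Tn5 transposase to insert adapters into accessible DNA, so that a higher value means more accessible chromatin.

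The 6 libraries came from C57BL/6 mice, 3 from control and 3 from Taf4asKO animals, each a biological replicate. In Taf4asKO mice, a Pax7-driven, tamoxifen-inducible Cre removes exons 11 and 12 of Taf4a, a TFIID subunit gene listed as Taf4 in the annotation. The control libraries are labelled WT. The paper describes its controls in general as littermates with the floxed Taf4a alleles, with or without the Cre, and also lists wild type mice. Which of these genotypes the control libraries had is not given in the sources used here. Whether the controls of these libraries received tamoxifen is not given in the sources used here. Tamoxifen was given at 8 to 20 weeks of age. MuSCs were sorted as cells without SCA1, CD45 and CD31 that carried Integrin-a7 or a Pax7 reporter. The paper reports that the purity of sorted cells, checked by reanalysis, was incomplete. Summed over peaks, the deposited values reached 37722015, 35226223 and 42803315 in the control libraries and 44311913, 41661725 and 41948821 in the Taf4asKO libraries.

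FGF receptors are tyrosine kinases that signal through adaptors and Ras to the kinases ERK and p38. Sprouty and Spred proteins are feedback inhibitors of this route, and Dusp6 and Dusp1 dephosphorylate ERK and, for Dusp1, also p38 and JNK. In resting muscle, FGF signalling is known to draw MuSCs out of quiescence and Spry1 to hold it back.

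The positions listed for Fgfr2 needed attention before any count. The table's gene model, on the minus strand, runs from chr7:130162451-133123350 (mm10, 2960.9 kb), whereas RefSeq (GRCm38.p6) places Fgfr2 at chr7:130162451-130266808 (104.4 kb). The longer span holds 31 other RefSeq protein-coding genes. Of the 108 peaks assigned to Fgfr2, 2 lay in its RefSeq interval, 5 in the 124.7 kb between its start and the next gene, Ate1, and the rest farther away. The 2 peaks that carry the symbol Fgfr2 (chr7:133112356-133113353 and chr7:133121773-133124634) lay in Ctbp2. With Fgfr2 taken by its RefSeq interval, 51 peaks remained at 9 genes, and these are described first. Dusp1 (RefSeq chr17:26505591-26508472) had no peak under the rule, since the table assigns its promoter peak and the 3 peaks downstream to a lincRNA and the peak 6.2 kb upstream to no gene. Its promoter peak is outside the 51 and the 157 peaks but is counted where the promoters of all 10 genes are.

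Sequences of the 5 regions with the smallest p at these genes or between Fgfr2 and Ate1 are shown with 2 promoters, that of Fgfr4, whose peak alone was called, and that of Spry2, whose peak was not. They were read from the GRCm38.p6 genome and, for promoters, from RefSeq promoter windows, here the 250 bases before the start. Peaks longer than 300 bases are shown by their central 300. Capitals mark matches, on either strand, to any of 7 motifs. For promoter elements, the CCAAT box (searched as CCAAT) was used together with the GC box, written GGGCGG here, and the TATA box, written TATAAA. For transcription factor families, the ETS proteins were represented by CCGGAA and the AP-1 proteins by TGANTCA. The myogenic factors and other E-box proteins were represented by CAGCTG, and Snail or ZEB proteins and some others by the E-box letters CACCTG.
Fgfr2 upstream region with the smallest p, centre of a lost peak (chr7:130381298-130381597, plus strand): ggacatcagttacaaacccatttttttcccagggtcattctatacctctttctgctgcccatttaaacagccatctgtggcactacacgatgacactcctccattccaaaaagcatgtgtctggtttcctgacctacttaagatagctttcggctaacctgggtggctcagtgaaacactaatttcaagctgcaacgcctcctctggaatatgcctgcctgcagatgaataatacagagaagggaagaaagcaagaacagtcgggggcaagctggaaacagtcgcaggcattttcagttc
Fgfr2 upstream region with the deepest loss, whole peak (chr7:130367192-130367392, plus strand): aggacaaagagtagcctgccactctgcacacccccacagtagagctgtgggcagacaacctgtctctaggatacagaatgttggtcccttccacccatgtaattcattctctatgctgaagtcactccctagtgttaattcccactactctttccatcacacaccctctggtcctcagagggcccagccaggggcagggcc
Spry2 downstream region, centre of a gained peak (chr14:105890723-105891022, plus strand): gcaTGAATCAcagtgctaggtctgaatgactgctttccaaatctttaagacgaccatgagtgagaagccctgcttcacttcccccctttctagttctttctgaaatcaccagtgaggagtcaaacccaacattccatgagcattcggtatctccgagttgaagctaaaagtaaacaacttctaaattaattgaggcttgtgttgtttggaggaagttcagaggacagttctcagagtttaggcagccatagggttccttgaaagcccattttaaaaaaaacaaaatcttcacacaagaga
Fgfr4 intronic region, centre of a higher peak (chr13:55154610-55154909, plus strand): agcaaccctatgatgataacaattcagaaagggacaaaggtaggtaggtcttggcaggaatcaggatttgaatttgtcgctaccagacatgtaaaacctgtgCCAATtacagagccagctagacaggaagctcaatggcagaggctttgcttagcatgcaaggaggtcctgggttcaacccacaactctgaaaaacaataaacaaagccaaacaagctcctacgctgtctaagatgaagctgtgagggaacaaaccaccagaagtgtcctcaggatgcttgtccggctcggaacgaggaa
Spred1 intronic region, whole gained peak (chr2:117174530-117174774, plus strand): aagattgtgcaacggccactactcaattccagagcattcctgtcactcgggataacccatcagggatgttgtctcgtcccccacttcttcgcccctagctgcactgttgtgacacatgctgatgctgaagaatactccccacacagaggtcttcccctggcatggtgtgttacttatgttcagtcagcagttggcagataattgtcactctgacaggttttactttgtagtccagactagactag
Fgfr4 promoter, the promoter whose peak was called higher (chr13:55152568-55152817, plus strand): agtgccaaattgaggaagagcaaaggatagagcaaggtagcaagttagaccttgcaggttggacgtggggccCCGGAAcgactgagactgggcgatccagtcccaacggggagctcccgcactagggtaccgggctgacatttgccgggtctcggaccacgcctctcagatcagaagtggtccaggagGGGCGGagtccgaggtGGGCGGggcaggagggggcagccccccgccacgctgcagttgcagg
Spry2 promoter, whose peak was not called (chr14:105896820-105897069, minus strand): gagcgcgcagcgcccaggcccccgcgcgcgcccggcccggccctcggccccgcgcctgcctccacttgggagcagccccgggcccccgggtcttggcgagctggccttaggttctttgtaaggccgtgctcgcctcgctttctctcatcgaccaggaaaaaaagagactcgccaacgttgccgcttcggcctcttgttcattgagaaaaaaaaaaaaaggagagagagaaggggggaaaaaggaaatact

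No match to these motifs was found in the central windows upstream of Fgfr2, in the Spred1 region or in the 250 bases shown for Spry2. The Spry2 downstream region held TGANTCA, the core letters of AP-1 sites, the Fgfr4 region held CCAAT, and the Fgfr4 promoter held CCGGAA once and GGGCGG at a pair of positions. In windows of 300 bases at the peak centre, 10 of the 42 peaks outside promoters contained TGANTCA (23.8%, against 25.55% of all peaks outside promoters) and 9 contained TATAAA (21.4%, against 11.02%). With the same background, 6 contained CCGGAA (14.3%, against 5.81%), 9 CACCTG (21.4%, against 18.1%), 5 GGGCGG (11.9%, against 11.42%), 13 CCAAT (30.95%, against 33.07%) and 10 CAGCTG (23.8%, against 31.34%). The median GC content was 72.0% in the 9 promoter windows and 48.7% in the other 42, beside 64.7% and 49.3% over all peaks of the same kinds. RefSeq windows of 300 bases at the start were at hand for 8 of the 10 genes. GGGCGG was found in 5 of them (35.7% of all promoter windows), CCAAT in 3 (37.4%) and CCGGAA in 2 (14.9%), while TGANTCA (7.8% of all), CAGCTG (16.3% of all), CACCTG (20.2% of all) and TATAAA (13.6% of all) were found in none. Over all RefSeq windows the median GC content was 52.7%, beside 43.7% to 72.3% in the 8. At the peak centre, 4 of the 9 promoter windows contained GGGCGG (44.44%, against 58.62% of all promoter peaks). There, 2 contained CCAAT (22.22%, against 28.17%) and 2 CCGGAA (22.22%, against 21.87%). CAGCTG and CACCTG were in 1 each (11.11%, against 19.17% and 19.49%), and TGANTCA and TATAAA in 0 (6.32% and 4.26% of all). All of these are letter matches, not sites of a factor.

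To ask how deletion of Taf4a changed accessibility at these genes, control and Taf4asKO libraries were compared by limma, fitted to log2(value + 1) of each peak whose mean value exceeded 10 (75384 peaks), and p-values were adjusted over all of these by the Benjamini-Hochberg method. Peaks with an adjusted p under 0.05 are called higher or lower in Taf4asKO. Peaks past a 2-fold ratio of group means, log2 of 1, are called gained or lost. Of the 51 peaks at the 9 genes, 18 were higher, 3 were lower and 30 were not called. Across all peaks, 28.0% were higher and 13.9% lower, so that the share higher at these genes (35.3%) lay near the background and the share lower (5.88%) below it. Gained peaks numbered 3, in Spry2 and Spred1, against 7.02% of all peaks, and 0 were lost, against 5.36%. The median log2 fold change was 0.19, beside 0.11 over all peaks. In 23 of the 51 peaks the libraries of the genotypes did not overlap (45.1%, against 50.3% of all peaks). Single libraries mattered for the small counts: 5 peaks were gained without control replicate 3, 1 was lower without control replicate 1 or Taf4asKO replicate 2 or 3, and 2 were lost without Taf4asKO replicate 1 and 1 without control replicate 1 or 2. Bulk libraries do not tell apart a larger share of cells with an open site and a more open site in each cell.

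Values depended on the scaling between libraries. On the authors' scale the mean of the library sums was larger in Taf4asKO, although control replicate 3 lay above Taf4asKO replicates 2 and 3. The median-of-ratios factors, quantile normalisation and equal total signal lowered the median of all peaks to -0.01, -0.02 and -0.04. With these, 17, 16 and 16 of the 51 peaks were higher and 9, 10 and 10 were lower, while 25.3%, 24.8% and 23.4% of all peaks were higher and 22.5%, 25.1% and 25.8% lower. Most of the added lower calls were promoters.

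**Figure D1:**
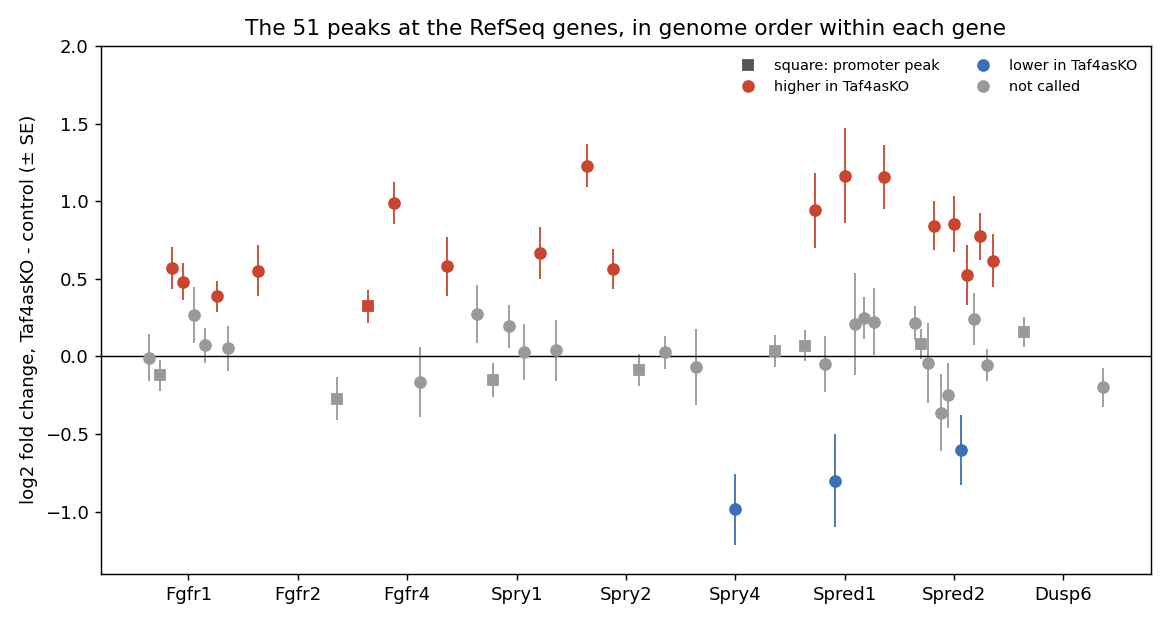
Log2 fold change of the 51 peaks (vertical axis, Taf4asKO minus control on the log2(value + 1) scale, bars show the limma SE) by gene, in genome order within each gene, with squares for promoter peaks and colours for peaks called higher or lower. Peaks away from promoters spread from -0.99 at Spry4 to 1.23 at Spry2, whereas the 9 promoter peaks stay between -0.27 and 0.32.

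The strongest signals at most of the genes were their promoter peaks, which hardly differed between genotypes on the authors' scale. Promoters were taken as the peak nearest to the RefSeq start. The Spry2 promoter peak (chr14:105895999-105898284) had values of 4767, 4469 and 5350 in control and 5078, 4364 and 4272 in Taf4asKO libraries. Spred2 (chr11:19923898-19926334) had 4419, 3964 and 4723 against 4700, 4588 and 4533, and Dusp1 (chr17:26507629-26509278) 4951, 4344 and 5449 against 4865, 4056 and 4046. The groups overlap at all 3. Dusp6 (chr10:99261162-99263943) had 3598, 3370 and 3757 in control and 4131, 3918 and 3886 in Taf4asKO libraries, without overlap but with an adjusted p of 0.21.

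Spred1 (chr2:117120043-117122131) had means of 3317 ± 361.7 in control and 3467 ± 102.7 in Taf4asKO libraries (SD, n = 3 each). The means were 3113 ± 324.2 and 3177 ± 138.0 at Spry4 (chr18:38600309-38602431), 2259 ± 176.7 and 2071 ± 87.4 at Fgfr1 (chr8:25518564-25520263) and 1801 ± 216.5 and 1615 ± 97.6 at Spry1 (chr3:37639462-37641111). The Fgfr2 peak nearest to the start (chr7:130265015-130266516) had 370, 424 and 489 in control and 379, 359 and 319 in Taf4asKO libraries. Its centre lies 1042 bases inside the gene, and the window of 250 bases before the start carries no peak.

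Per kb of peak width, the order of the levels in control libraries was Dusp1 (2979 ± 335.4, SD, n = 3), Spry2 (2127 ± 196.0), Spred2 (1793 ± 156.7), Spred1 (1588 ± 173.1), Spry4 (1466 ± 152.7), Fgfr1 (1329 ± 103.9), Dusp6 (1285 ± 69.9), Fgfr4 (1098 ± 60.1), Spry1 (1091 ± 131.2) and Fgfr2 (284.7 ± 39.7). The libraries of neighbours in this order overlap from Spred2 to Dusp6 and at Fgfr4 and Spry1. Dusp1 stands above and Fgfr2 far below all others. Among the receptors the level per kb in Taf4asKO libraries was 1373 ± 93.6 for Fgfr4, 1218 ± 51.4 for Fgfr1 and 234.6 ± 20.3 for Fgfr2.

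Only Fgfr4 passed the test among the 10 promoter peaks. Its peak (chr13:55152498-55153473) measured 1036, 1039 and 1139 in control and 1438, 1257 and 1326 in Taf4asKO libraries. All Taf4asKO values lay above all control values, with a log2 fold change of 0.32 ± 0.11 (SE, adjusted p = 0.017). This call was lost with quantile normalisation (0.15, adjusted p = 0.057) and without control replicate 1, Taf4asKO replicate 1 or Taf4asKO replicate 3 (adjusted p = 0.082, 0.1 and 0.064). Without control replicate 3, the Dusp6 promoter peak was higher too (0.19, adjusted p = 0.038). Without control replicate 2, the Dusp1 promoter peak was lower (-0.27, adjusted p = 0.04). With limma, 1 of 10 promoter peaks was higher and 0 were lower, and at an unadjusted p under 0.05 the counts were again 1 and 0; no other test was run. Over the promoter peaks of all genes, 12.8% were higher and 6.35% lower.

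Of the other 9 promoters, Spred1, Spred2 and Dusp6 were not called under any scaling, while the calls of the rest depended on it. At Spry4, Spred1 and Spred2 the direction did too, with values near 0. With median-of-ratios factors 5 promoter peaks of the 10 were lower, and with quantile normalisation or equal total signal 6 were lower. Fgfr1 (-0.24, -0.25 and -0.27), Fgfr2 (-0.39, -0.49 and -0.42), Spry1 (-0.26, -0.30 and -0.30), Spry2 (-0.20, -0.19 and -0.24) and Dusp1 (-0.30, -0.29 and -0.33) passed the test as lower under each of the 3, beside -0.12, -0.27, -0.15, -0.09 and -0.18 on the authors' scale. Over all promoter peaks, 22.6%, 33.4% and 32.0% were lower with these scalings.

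**Figure D2:**
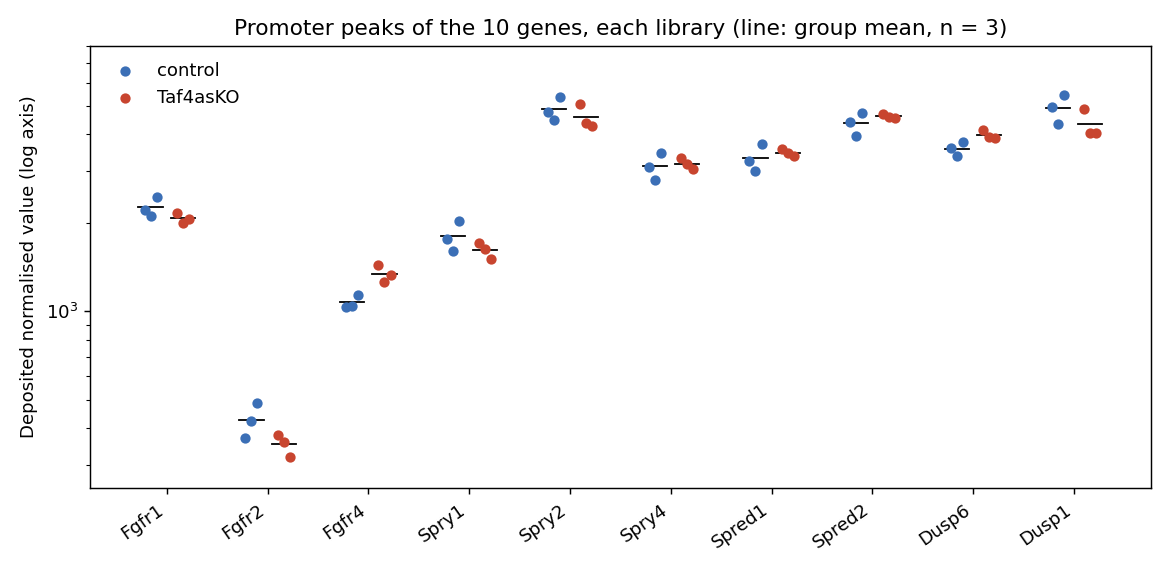
Deposited normalised value (log axis) of the promoter peak of each of the 10 genes in each library, with control in blue, Taf4asKO in red and lines at the group means (n = 3). The groups overlap at 8 genes, and the Fgfr4 peak is the only one that passed the test, with 1257 to 1438 in Taf4asKO against 1036 to 1139 in control libraries.

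Away from the promoters, 17 of 42 peaks were higher and 3 were lower (40.5% and 7.14%), where 31.4% and 15.6% of all peaks outside promoters were. With median-of-ratios factors, quantile normalisation and equal total signal, 16, 16 and 15 of the 42 were higher and 5 were lower each time. In the same order, 28.2%, 27.8% and 26.4% of all peaks outside promoters were higher and 22.4%, 23.2% and 24.4% lower. Of these peaks, 21 lay in introns (10 higher, 2 lower), 12 in exons (5 higher, 1 lower), 5 downstream of the gene (2 higher) and 4 upstream (none called, also at an unadjusted p under 0.05). Their median width was 390.5 bases, against 2089 for the 9 promoter peaks, and their mean values ranged from 32.0 to 3238, against 390.0 to 4717. A peak counted as exonic when an exon of any RefSeq transcript of the gene covered its centre. All Spred2 peaks from 23.5 to 55.1 kb after the start carried this label, so it need not mean a coding exon.

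At the receptors, 7 of 14 peaks were higher (50%, against 28.0% of all peaks) and 0 were lower (13.9% of all peaks were), also at an unadjusted p under 0.05. The absence of lower peaks held on the authors' scale only. With median-of-ratios factors, quantile normalisation or equal total signal, the promoter peaks of Fgfr1 and Fgfr2 among them were lower. The clearest case of a higher peak was an intronic peak of Fgfr4 (chr13:55154275-55155246, 1.9 kb after the start), the receptor known for its high expression in myogenic cells. It rose from 268, 336 and 367 in control to 629, 669 and 619 in Taf4asKO libraries. Every Taf4asKO value was well above every control value, with a log2 fold change of 0.99 ± 0.14 (SE, adjusted p = 4.1e-06), just short of the threshold for gained peaks. A further Fgfr4 peak in an exon (chr13:55161014-55161560) went from 74, 99 and 124 to 133, 148 and 156 (log2 fold change 0.58 ± 0.19, adjusted p = 0.017), a call that was lost with equal total signal and without control replicate 1 or 2 or Taf4asKO replicate 3. The weak peak at chr13:55159916-55160199 had 65, 63 and 69 against 78, 53 and 48 and was not called.

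In Fgfr1, 3 intronic peaks within 25.2 kb of the start were higher. The peak at chr8:25521199-25522048 had 924, 1008 and 1446 in control and 1649, 1602 and 1670 in Taf4asKO libraries (log2 fold change 0.57 ± 0.13, adjusted p = 0.0023). At chr8:25525203-25526168 the values were 639, 622 and 660 against 996, 767 and 934 (0.48 ± 0.12, adjusted p = 0.0023). At chr8:25542916-25545091 they were 1455, 1395 and 1502 against 1937, 1851 and 1899 (0.39 ± 0.10, adjusted p = 0.0031). The libraries of the genotypes did not overlap at any of the 3, and control replicate 3 was the closest to the Taf4asKO libraries at the first. The strongest peak of the gene, at chr8:25536500-25538077, did not follow them, with 3018, 2715 and 3778 against 3500, 3279 and 3139 (0.07 ± 0.11, adjusted p = 0.64). The peak at the start that the table lists (chr8:25514202-25514750), 4.3 kb before the RefSeq start, had 228, 207 and 197 against 225, 185 and 219.

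The deepest losses of accessibility among the peaks at these genes and in the gap lay between Fgfr2 and Ate1, and none within Fgfr2. At chr7:130380883-130382013, 114.6 kb before the Fgfr2 start and 10 kb from Ate1, the values fell from 372, 380 and 400 in control to 67, 86 and 58 in Taf4asKO libraries. The control libraries were close together and the highest Taf4asKO value was far below them, with a log2 fold change of -2.45 ± 0.17 (SE, adjusted p = 5.5e-10), the smallest p of all 157 peaks. A small peak at chr7:130367192-130367392, 100.5 kb before the start and 24.2 kb from Ate1, went from 39, 51 and 58 to 4, 5 and 1 (-3.67 ± 0.46, adjusted p = 1.3e-06), so that almost no signal was left in the Taf4asKO libraries. The size of a fold change at such low values depends on the pseudocount, and with a pseudocount of 8 it was -2.34.

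The other 3 peaks in this gap behaved differently from each other. At chr7:130319904-130320119, 53.2 kb before the start, values of 22, 22 and 39 fell to 11, 12 and 14 (-1.06 ± 0.37, adjusted p = 0.024). At chr7:130288750-130289683, 22.4 kb before the start, they went from 108, 113 and 230 to 239, 233 and 231 (0.73 ± 0.23, adjusted p = 0.022), with control replicate 3 next to the Taf4asKO libraries. Both calls depended on single libraries: the first was lost without control replicate 3 or Taf4asKO replicate 1 (adjusted p = 0.11 and 0.056) and with quantile normalisation (-0.76, adjusted p = 0.078), the second without control replicate 2 or Taf4asKO replicate 1 or 2 (adjusted p = 0.11, 0.084 and 0.058). The peak nearest to the start, at chr7:130273273-130273686, had 103, 133 and 142 in control and a mean of 102.3 ± 1.2 (SD, n = 3) in Taf4asKO libraries and was not called.

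Within Fgfr2, the intronic peak at chr7:130215284-130216129, 51.1 kb after the start, had 353, 266 and 437 against 573, 530 and 427. The lowest Taf4asKO library fell below the highest control library, and the log2 fold change was 0.55 ± 0.17 (adjusted p = 0.012), which missed the threshold with quantile normalisation (adjusted p = 0.059) and without control replicate 2 or Taf4asKO replicate 1 (adjusted p = 0.098 and 0.053). The peaks between the start and Ate1 lie in no RefSeq protein-coding gene. These data do not say which gene they act on.

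**Figure D3:**
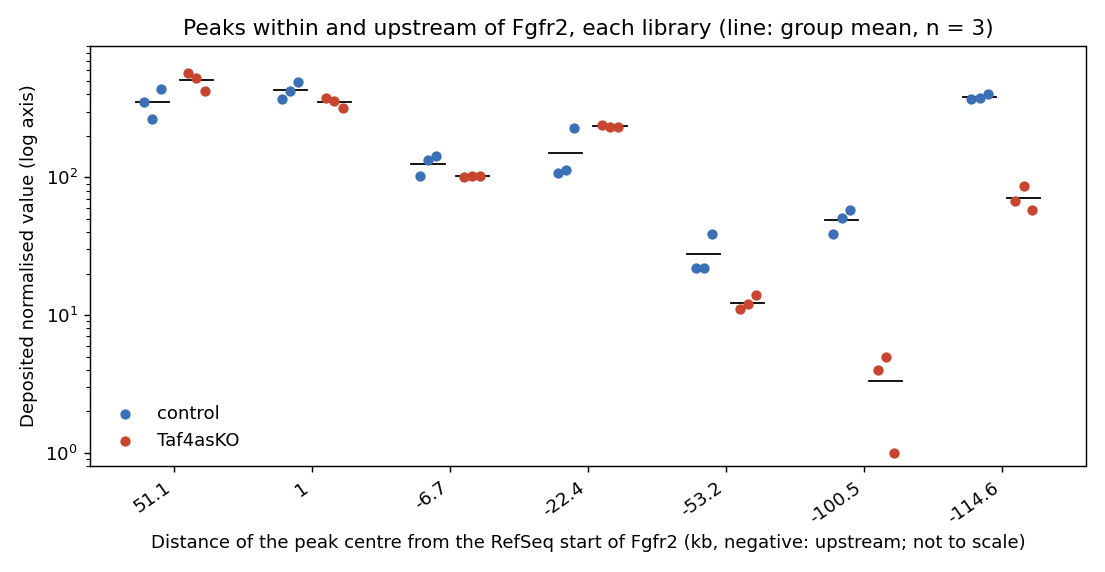
Deposited normalised value (log axis) of the 7 peaks within Fgfr2 and between its start and Ate1 in each library, ordered by distance of the peak centre from the RefSeq start in kb (evenly spaced, not to scale), with lines at the group means (n = 3). The peaks at -114.6 and -100.5 kb drop from 372 to 400 and 39 to 58 in control to 58 to 86 and 1 to 5 in Taf4asKO libraries.

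The remaining peaks that the table's Fgfr2 model holds lie beyond the gap and outside RefSeq Fgfr2. Which gene they act on was not tested. Of these 101 peaks, 39 were higher (38.6%, against 28.0% of all peaks), 9 lower (8.91%, against 13.9%), 14 gained (7.02% of all peaks were) and 2 lost (5.36% of all). By position, 19 lay in Fam53b (9 higher, 2 lower), 18 in Ctbp2 (10 higher, 1 lower), 13 in Tacc2 (1 higher, 1 lower), 8 in Htra1 (7 higher), 8 in Lhpp (2 higher, 1 lower), 6 in Cpxm2 (5 higher) and 6 in Chst15 (1 higher), while 17 lay in no gene (4 higher, 2 lower). The smallest p among them were those of a peak in Fam53b (chr7:132719384-132719935), with 322, 338 and 382 in control and 1075, 1018 and 1112 in Taf4asKO libraries (log2 fold change 1.62 ± 0.12, adjusted p = 1.5e-09), and of a peak in Htra1, a secreted protease gene (chr7:130964631-130965155), with 217, 194 and 238 against 572, 540 and 556 (1.36 ± 0.14, adjusted p = 6.4e-08). A peak in Ate1 (chr7:130476107-130476258) was lost, from 68, 66 and 69 to 26, 22 and 14 (-1.71 ± 0.28, adjusted p = 3.5e-05). The 2 peaks that bear the symbol Fgfr2 had log2 fold changes of 0.20 and 0.06 and were not called. Over all 157 peaks of the rule, 58 were higher, 15 lower, 17 gained and 5 lost, with a median log2 fold change of 0.21. Without control replicate 3 the median was 0.31 and 3 peaks were lost, and 8 were lost without Taf4asKO replicate 1.

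Of the 13 peaks at the Sprouty genes, 3 were higher (23.1%, against 28.0% of all peaks) and 1 was lower (7.69%, against 13.9%). The promoter peaks of Spry1 and Spry2 were lower as well with median-of-ratios factors, quantile normalisation or equal total signal. That of Spry4 was lower with quantile normalisation or equal total signal. Spry2 (RefSeq chr14:105891947-105896819, minus strand), an inhibitor induced by receptor tyrosine kinase signals, had the largest increase of the 51 peaks. Its downstream peak at chr14:105890499-105891248, 6.0 kb from the start and past the end of the gene, measured 463, 477 and 711 in control and 1268, 1324 and 1208 in Taf4asKO libraries. All Taf4asKO libraries were far above all control libraries (log2 fold change 1.23 ± 0.14, adjusted p = 1.4e-06), and the peak was gained. An exonic peak at chr14:105895041-105895381 went from 370, 372 and 472 to 609, 576 and 600 (0.56 ± 0.13, adjusted p = 0.0013). The peak 2.0 kb upstream (chr14:105898471-105899123) stayed at 1075, 1012 and 1162 against 1181, 1059 and 1068.

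Spry1 (RefSeq chr3:37639947-37644599), the Sprouty gene associated with MuSC quiescence, had 6 peaks, of which 1 was higher. This peak lies downstream of the gene (chr3:37648612-37648915), with 96, 110 and 124 in control and 172, 181 and 170 in Taf4asKO libraries (log2 fold change 0.67 ± 0.17, adjusted p = 0.0024). Its downstream neighbours on either side were not called, with 128, 124 and 143 against 128, 174 and 108 at chr3:37648031-37648411 and 97, 83 and 81 against 108, 85 and 77 at chr3:37649436-37649585.

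Spry4 (RefSeq chr18:38586247-38601347, minus strand) had 1 lower and no higher peak among 3. An intronic peak at chr18:38594094-38594388, 7.1 kb after the start, fell from 68, 72 and 81 in control to 39, 37 and 34 in Taf4asKO libraries (log2 fold change -0.99 ± 0.23, adjusted p = 0.0012), close to the threshold for lost peaks. The other intronic peak (chr18:38592207-38592443) was not called, with 42, 59 and 70 against 43, 60 and 58.

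The Spred genes, which encode membrane-anchored inhibitors of Ras to Raf signalling, had 22 peaks, of which 8 were higher (36.4%, against 28.0% of all peaks) and 2 lower (9.09%, against 13.9%). In Spred1 (RefSeq chr2:117121071-117182279), 2 intronic peaks were gained. The peak at chr2:117174530-117174774 went from 42, 59 and 63 to 136, 108 and 121 (log2 fold change 1.15 ± 0.21, adjusted p = 9.9e-05). The peak at chr2:117140595-117140785 rose from the low values 24, 16 and 18 to 35, 45 and 54 (1.17 ± 0.30, adjusted p = 0.0034). Another intronic peak, at chr2:117133655-117133861, had 31, 38 and 44 against 56, 85 and 80 (0.94 ± 0.24, adjusted p = 0.0033). Less than 1 kb from the second of these lay a peak that fell, at chr2:117139927-117140211, with 47, 37 and 42 against 33, 18 and 22 (-0.80 ± 0.30, adjusted p = 0.034). That call missed the threshold with quantile normalisation and without any of 4 libraries (control replicate 1 or 2, Taf4asKO replicate 2 or 3).

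Spred2 (RefSeq chr11:19924442-20024026) had 13 peaks, of which 5 were higher and 1 lower. The smallest p were found at chr11:19947603-19948282 (113, 133 and 126 against 240, 200 and 230, log2 fold change 0.84 ± 0.16, adjusted p = 1.6e-04), chr11:19983426-19983624 (143, 157 and 184 against 254, 297 and 275, 0.77 ± 0.15, adjusted p = 2.9e-04) and chr11:19961876-19962371 (68, 78 and 87 against 137, 147 and 137, 0.85 ± 0.18, adjusted p = 5.3e-04). In each, all Taf4asKO libraries exceeded all control libraries. A peak at chr11:19990784-19990938 was also higher (0.62 ± 0.17, adjusted p = 0.0057). The calls at chr11:19973807-19974334 (0.53 ± 0.19, adjusted p = 0.031) and at chr11:19972527-19972803, which was lower (67, 57 and 73 against 43, 44 and 41, -0.60 ± 0.23, adjusted p = 0.036), were each lost on leaving out any of several libraries, the former also with equal total signal and median-of-ratios factors (adjusted p = 0.086 and 0.063). The strongest of the intronic peaks (chr11:19986332-19987477), with 1527, 1455 and 1725 against 1574, 1443 and 1504, was not called.

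Dusp6 (RefSeq chr10:99263231-99267489), whose product dephosphorylates ERK, had its promoter peak and a downstream peak at chr10:99268569-99269921. The latter had 408, 404 and 406 in control and 343, 360 and 357 in Taf4asKO libraries, all below control, but the log2 fold change of -0.20 ± 0.13 did not pass the test (adjusted p = 0.22). Around Dusp1, outside the rule, a peak 6.2 kb upstream (chr17:26514085-26515174) had 1218, 981 and 1527 against 1657, 1669 and 1553 and was higher (0.41 ± 0.13, adjusted p = 0.015). The 3 peaks downstream of Dusp1 had log2 fold changes of 0.21, -0.09 and 0.07 and were not called.

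When all peaks of a gene were summed, Fgfr4 alone passed the test, with totals of 1443, 1537 and 1699 in control and 2278, 2127 and 2149 in Taf4asKO libraries (log2 fold change 0.49 ± 0.10, adjusted p = 5e-06). Among 21396 genes, 22.2% were higher and 10.7% lower. Fgfr1 (0.18 ± 0.12), Spry2 (0.13 ± 0.11), Spred2 (0.13 ± 0.12), Spred1 (0.12 ± 0.11) and Dusp6 (0.12 ± 0.11) did not pass the test, nor did Fgfr2 by its RefSeq interval (0.15 ± 0.11), Spry4 (0.01 ± 0.11) and Spry1 (-0.02 ± 0.10). Without control replicate 3, the largest of the control libraries, the totals of Fgfr1, Fgfr4, Spry2, Spred1 and Spred2 were higher, and so was the sum of all 108 peaks that the rule gives to Fgfr2, most of which lie in other genes. With quantile normalisation or equal total signal, 2 totals, those of Spry1 and Spry4, were lower (adjusted p = 0.012 and 0.017, and 0.0031 and 0.007).

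Because the scaling of a library cancels in a ratio of peaks of the same gene, the sum of the other peaks was divided by the promoter peak in each library. Over 7932 genes with both, 24.8% had a higher and 20.8% a lower ratio in Taf4asKO. Of the 7 genes whose promoter in the table is that of RefSeq, 4 had a higher and 2 a lower ratio. In Spry2, the log2 ratio moved from -1.32, -1.26 and -1.19 in control to -0.73, -0.56 and -0.57 in Taf4asKO libraries, a difference of 0.64 ± 0.06 (SE, adjusted p = 1.8e-05). It was also higher in Fgfr4 (0.48 ± 0.12, adjusted p = 0.0052), Spry1 (0.39 ± 0.09, adjusted p = 0.0035) and Spred1 (0.27 ± 0.08, adjusted p = 0.012). Spry4 (-0.55 ± 0.14, adjusted p = 0.0065) and Dusp6 (-0.36 ± 0.09, adjusted p = 0.0057) had lower ratios, and Spred2 was not called (0.10 ± 0.06, adjusted p = 0.16). The Spred1 call was lost without Taf4asKO replicate 3 (adjusted p = 0.065). Fgfr1 (0.19 ± 0.12, adjusted p = 0.2) and Fgfr2 (0.19 ± 0.04, adjusted p = 0.0021) are given only as values, since the table's promoter of the former is the weak upstream peak and that of the latter lies in Ctbp2.

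**Figure D4:**
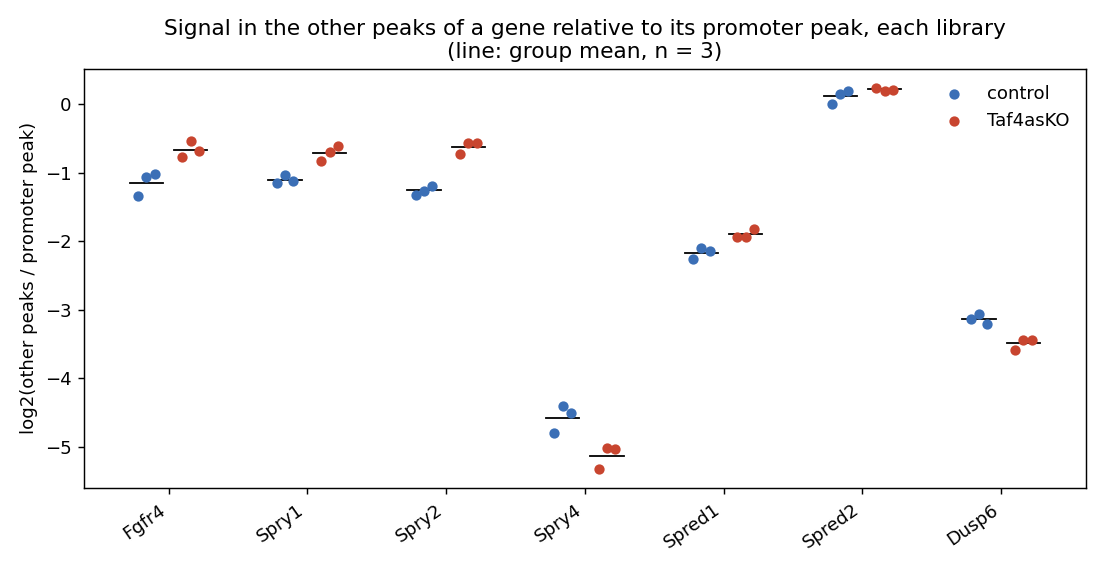
Log2 ratio of the summed other peaks to the promoter peak (vertical axis, log2 units) for 7 genes in each library, with lines at the group means (n = 3). The genotypes do not overlap at Fgfr4, Spry1, Spry2 and Spred1, where Taf4asKO libraries are higher, nor at Spry4 and Dusp6, where they are lower. At Spred2, which was not called, the lowest Taf4asKO library lies just above the highest control library.

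The other genes of the pathway were taken by symbol alone, in 6 lists with 86 genes, of which 75 had 159 tested peaks. Of these peaks 28 were higher and 13 lower (17.6% and 8.18%). Because 71 of the 159 were promoter peaks, the kinds are best read apart: 9 of the 71 promoter peaks were higher and 3 lower (12.7% and 4.23%, beside 12.8% and 6.35% of all promoter peaks), and 19 of the other 88 were higher and 10 lower (21.6% and 11.4%, beside 31.4% and 15.6%). The 88 all carry a gene symbol, whereas only 35279 of the 75412 peaks have a gene. No share was computed for peaks outside promoters that have a gene, so the 88 and their background are unlike sets. With median-of-ratios factors, quantile normalisation and equal total signal, 18.3%, 31.0% and 29.6% of the pathway promoter peaks were lower (22.6%, 33.4% and 32.0% of all promoter peaks) and 22.7%, 27.3% and 25% of the others (22.4%, 23.2% and 24.4% of all other peaks). In the same order, the lower peaks numbered 4, 8 and 5 for ligands, 4, 7 and 8 for other receptors, 5, 6 and 7 for adaptors, 2, 5 and 4 for kinases, 7, 8 and 8 for other brakes and 11, 12 and 11 for ERK targets. Without control replicate 3, 52 were higher. Counts of single lists moved with single libraries as well: without control replicate 3, 11 ligand peaks, 10 kinase peaks, 10 peaks of other brakes and 14 peaks of ERK targets were higher, and 1 adaptor peak was. The kinases had 2 higher peaks without control replicate 2 or any 1 Taf4asKO library, and the ERK targets had 4 without control replicate 2 and 5 without Taf4asKO replicate 2. Without control replicate 2, 5 peaks of other brakes, 7 of ERK targets and 2 of kinases were lower. No ligand peak was lower without control replicate 2 or Taf4asKO replicate 3, and no kinase peak without Taf4asKO replicate 2. Of the other receptors, no peak was lower without control replicate 1 or Taf4asKO replicate 2, and 2 were without control replicate 3. Among the ligands, 6 of 33 peaks were higher and 1 lower. A peak 5235 bases from the listed start of Fgf2, a ligand that activates MuSCs, was gained, from 28, 23 and 57 in control to 162, 245 and 231 in Taf4asKO libraries (log2 fold change 2.62 ± 0.29, adjusted p = 4.6e-06). The Fgf1 promoter peak was higher (546, 566 and 641 against 917, 865 and 881, adjusted p = 1.8e-04) and a peak of Fgf7 was lower (-0.70 ± 0.23, adjusted p = 0.016).

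Among other receptors and co-receptors, 5 of 22 peaks were higher and 1 was lower, with a gained peak in Sdc3, a heparan sulphate proteoglycan of MuSCs (192, 164 and 187 against 466, 418 and 507, log2 fold change 1.35 ± 0.14, adjusted p = 1.4e-07), a lower one in the same gene (-0.91 ± 0.30, adjusted p = 0.016) and a higher one in Fgfr3 (0.68 ± 0.16, adjusted p = 0.0014). The adaptors had 3 lower (16.7%, against 13.9% of all peaks) and 0 higher peaks (28.0% of all peaks were) among 18, also at an unadjusted p under 0.05. Promoter peaks made up 9 of the 18, and none of them was called (12.8% of all promoter peaks were higher and 6.35% lower). The lower peaks were led by a Crkl peak that was almost gone (60, 52 and 31 against 3, 7 and 4, adjusted p = 3.1e-06) and a peak of Frs2, the adaptor docked on FGF receptors (378, 321 and 309 against 186, 203 and 175, adjusted p = 7.9e-05). Among the kinases from Ras to ERK and p38, 4 of 22 peaks were higher and 1 lower, including Map2k3 (0.65 ± 0.14, adjusted p = 8.4e-04) and a higher and a lower peak of Ksr1 (0.80 ± 0.22 and -0.99 ± 0.28).

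Other brakes had 4 higher (16.7%, against 28.0% of all peaks) and 3 lower peaks (12.5%, against 13.9%) among 24. Promoter peaks made up 12 of the 24, with 0 higher and 2 lower (12.8% and 6.35% of all promoter peaks were). Peaks of Dusp8 (495, 433 and 551 against 996, 967 and 903, adjusted p = 1.4e-06) and Dusp5 (233, 219 and 296 against 491, 441 and 463, adjusted p = 2.2e-05) were higher. A Flrt3 peak was lost (176, 167 and 239 against 79, 56 and 66, adjusted p = 1.4e-06), and the promoter peak of Dusp2 fell from 1170, 1125 and 1111 to 779, 684 and 707 (adjusted p = 4.4e-05). Among transcription factors and other targets of ERK, 9 of 40 peaks were higher and 4 lower, and 5 were higher with equal total signal or quantile normalisation. Peaks of Ets1 (1.54 ± 0.20, adjusted p = 2.1e-06) and Ccnd1, which encodes cyclin D1 (1.20 ± 0.16, adjusted p = 3e-06), were gained. A peak 8023 bases from the start of Egr1 was lost (1116, 816 and 1115 against 495, 544 and 428, adjusted p = 2.8e-06) and a peak of Fos was lower (-0.66 ± 0.12, adjusted p = 1.6e-04), both immediate early genes.

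**Figure D5:**
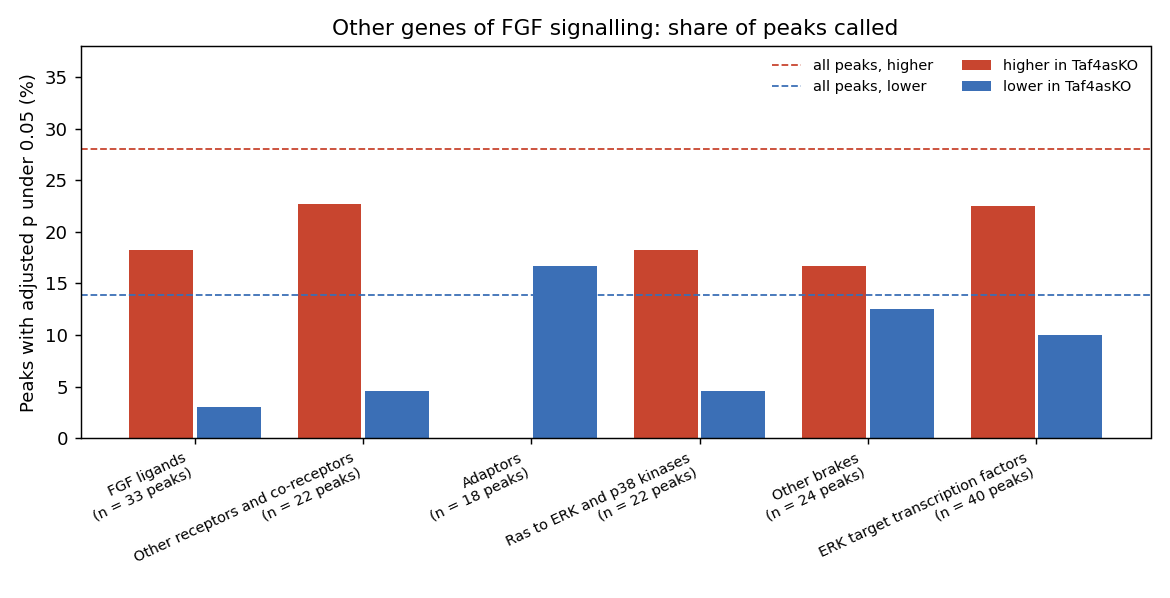
Share of tested peaks called higher (red) or lower (blue) in Taf4asKO, in percent, for 6 lists of other FGF pathway genes, with dashed lines at the shares over all peaks. Every list lies below the dashed line at 28.0% for higher peaks, but 71 of the 159 peaks are promoter peaks, of which 12.8% were higher over all genes, and the adaptors, with 0 higher and 3 lower of 18, are the list with no higher peak.

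The likeness of other peaks was read for the member peak with the smallest p, that 114.6 kb before Fgfr2. Over the 6 libraries and 23206 peaks of other genes, the highest Pearson correlations of log2(value + 1) were those of peaks of Abcb4 (0.9972), Lhfpl5 (0.9968) and Aatf (0.9965). The points are 2 groups of libraries, so that a peak that separates the genotypes in the same direction scores highly.

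The identity of the samples was checked at Taf4 and at markers of cell types. The Taf4 peak over exon 12 (chr2:179922849-179923263), in the floxed part, had 65, 78 and 137 in control and 44, 22 and 25 in Taf4asKO libraries (log2 fold change -1.58 ± 0.30, adjusted p = 3.4e-04), while its promoter peak was not called (2305, 1998 and 2375 against 2095, 2124 and 2104). Peaks outside the floxed exons changed too: that over exon 7 (chr2:179931701-179932202) fell from 253, 249 and 302 to 140, 145 and 165 (-0.83 ± 0.15, adjusted p = 1.4e-04), the peak at chr2:179916955-179917641 was lower (-0.49 ± 0.18, adjusted p = 0.027) and the peak at chr2:179979788-179980166 was higher (0.55 ± 0.14, adjusted p = 0.003). All 7 MuSC markers had a promoter peak, with sums of 12522, 10252 and 12575 in control and 11623, 10927 and 11059 in Taf4asKO libraries. Pax7, the defining factor and the marker with the largest promoter peak value, had 4533, 3128 and 3729 against 3084, 2923 and 3026 and was lower (-0.32 ± 0.11, adjusted p = 0.03). Vcam1 was higher, with 572, 534 and 540 against 749, 697 and 658 (0.35 ± 0.12, adjusted p = 0.018), and the other 5 were not called.

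Promoter peaks of haematopoietic markers were absent for all 4 genes, including Ptprc, which encodes CD45, and of endothelial markers only Kdr had one (111, 114 and 143 against 151, 144 and 114), while Pecam1, Cdh5 and Emcn had none. Of 4 mesenchymal markers, Pdgfra and Ly6a, which encodes SCA1, had no promoter peak, but Col1a1, with the larger peak value, and Dcn were both higher in Taf4asKO (0.63 ± 0.11 and 0.84 ± 0.17). Their sums were 1332, 1114 and 1441 in control and 2116, 1993 and 1953 in Taf4asKO libraries. Myofibre markers had promoter peaks at 3 of 4 genes, all but Acta1, led by Myh1, with sums of 1523, 1351 and 1796 against 1692, 1609 and 1619. The part of the mesenchymal signal in the higher peaks of the FGF genes was not tested.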

How the data were processed

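The deposited table gives a score per peak and library: the authors' read counts in a common set of 75412 peaks, scaled for sequencing depth and rounded. From 20 to 300, the whole numbers that occur are the rounded multiples of 1 factor per library (1.39, 1.00, 1.23, 1.39, 1.37 and 1.29, controls first), save for 2 numbers in control replicate 3. Per the labels, reads were trimmed with Trimmomatic 0.39, aligned with STAR 2.7.11b to mm10 and deduplicated with Picard 3.1.1, and peaks were counted with featureCounts; a shift for the Tn5 insertion is not given in the sources used here.

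Because the values are not raw counts, limma 3.58.1 (R 4.3.3) with trend and robust moderation was run on log2(value + 1) over 75384 peaks with a mean above 10, and likewise on gene totals and on ratios to the promoter peak (in the table, the peak nearest to the listed start within 1000 bases, and by RefSeq within 2000). Tested on simulated data with a log2 change of 1, it recovered 178 of 200 changed peaks (89.0%) among 195 calls, of which 8.7% were false. This recovery is for changes of that size. The simulation changed 200 of 75377 peaks, used a fixed dispersion and kept the totals of the real libraries. Its false share therefore does not give that of the real calls. Replicate numbers come from the labels, and with 3 libraries per genotype precision is limited; 0 columns were left unused. Coordinates are as deposited.

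The genes, lists and tests were chosen with earlier results of these data known. Above 30 called peaks, the rule described the 3 with the smallest p of each gene; the other Spred1, Spred2 and Fgfr2 upstream peaks, those with the symbol Fgfr2 and those around Ate1 and Dusp1 were named after their values were seen. So were the RefSeq intervals chosen. Alternatives covered scaling, pseudocount, minimum value, moderation, pairing by replicate number, gene assignment and each library left out. The result of 1 further marker list is not reported here.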

Additional observations from a re-analysis of the deposited data

How the results depend on the processing

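Of the 24 called peaks away from promoters at the RefSeq genes or between Fgfr2 and Ate1, 17 kept direction and call under every alternative run. Apart from the Taf4 peak over exon 12, the alternatives were not run for single peaks named at other genes. Assignment set how many peaks were counted: of the 157 by the rule 36.9% were higher, of the 27 by symbol alone 7 were higher, 1 lower, 1 gained and 0 lost with a median of 0.069, and of the 51 with Fgfr2 by its RefSeq interval, added after the data were seen, 18, 3, 3 and 0 with a median of 0.19. A 1.5-fold threshold gave 44 gained and 13 lost (10 and 3 at the RefSeq genes), and a minimum value of 50 left 1 lost. With equal total signal, median-of-ratios factors and quantile normalisation, 36, 30 and 36 were lower and the median was 0.063, 0.098 and 0.084; equal total signal gave 10 gained. At the RefSeq genes 10, 9 and 10 were lower, 1, 1 and 0 lost, and the median was 0.045, 0.080 and 0.024. In the same order, promoter peaks by the table were lower in 4, 2 and 3 cases and by RefSeq in 6, 5 and 6, none being higher (0) with quantile normalisation; gene totals were higher in 2, 2 and 1 cases and lower in 2, 1 and 2; and 43, 33 and 46 pathway peaks were lower.

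Directions of values near 0 reversed with scaling. In the same order, the promoter peak had a log2 fold change of -0.11, -0.079 and -0.078 at Spry4, -0.079, -0.044 and -0.037 at Spred1, -0.068, -0.033 and -0.0080 at Spred2 and -0.085, -0.050 and -0.026 at the table's Fgfr2 promoter. The gene total of Spry4 was -0.13, -0.098 and -0.11. With equal total signal and quantile normalisation, totals were -0.019 and -0.068 for Spry2, -0.026 and -0.010 for Spred1, -0.015 and -0.073 for Spred2 and -0.026 and -0.0083 for Dusp6, and Fgfr1 was -0.026 with quantile normalisation. Without a single library, reversals were seen for the totals of Spry1 (-0.082 to 0.073, above 0 without Taf4asKO replicate 3 or control replicate 3) and Spry4 (-0.055 to 0.093, below 0 without Taf4asKO replicate 1 or control replicate 2), for the promoter peaks of Spry4 (-0.040 to 0.11) and Spred1 (-0.0005 to 0.15), below 0 without control replicate 2, and for the table's Fgfr1 promoter (-0.063 to 0.078, above 0 without Taf4asKO replicate 2 or control replicate 1). The cause was not tested.

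Leaving out each library in turn gave 47 to 72 higher, 11 to 15 lower, 13 to 23 gained and 3 to 8 lost peaks of 157 (median 0.15 to 0.31), and 15 to 24 higher, 1 to 2 lower, 2 to 5 gained and 0 to 2 lost of 51 (median 0.11 to 0.22). Promoter peaks higher ranged from 0 to 2 and, by RefSeq, lower from 0 to 1, gene totals by the rule higher from 1 to 6, higher ratios from 3 to 4 of the 7 genes, pathway peaks from 20 to 52 higher and 9 to 18 lower, and the Taf4 peak from -1.87 to -1.27. Same-numbered libraries deviated together with correlations of 0.11, -0.12 and -0.03, and differently numbered ones with -0.12 to 0.15. With 3 libraries per genotype, these values cannot tell whether the numbers pair the libraries. With the replicate number as a block, 60 of the 157 peaks were higher and 15 lower, and no other count moved by more than 1.5 times. Low values, as at the small Spred1 and Fgfr2 peaks, limit what can be seen there.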
